A study of Mus musculus with 24 samples.

Results

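The unfolded protein response and the folding of secreted proteins were followed through 36 genes in mammary glands of mice given progesterone or its oil vehicle. The genes were taken by name from the platform's gene symbols, and each gene was read through the probe set that had the highest mean log2 intensity over the 24 arrays among probe sets naming a single gene. All 36 genes were found and all 36 passed the filter on dim probe sets, out of 12352 genes tested. Ero1l is listed on the platform under its newer symbol, Ero1a.

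Proteins that enter the secretory pathway are threaded into the endoplasmic reticulum (ER) through the Sec61 channel, folded there by chaperones and by enzymes that form disulfide bonds, and, when folding fails, returned to the cytosol for destruction. A rise in unfolded protein activates 3 sensors, the kinases IRE1 (Ern1) and PERK (Eif2ak3) and the membrane-tethered factor ATF6, which act through XBP1, ATF4 and ATF6 itself to raise chaperone, degradation and amino acid supply genes. Secretory epithelium depends on this machinery, and in the mammary gland it is known chiefly from the cells that make milk in pregnancy and lactation.

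The animals were nulliparous BALB/c mice whose ovaries were removed at 6 weeks of age and which then rested for 2 weeks, so that every group lacked ovarian hormone. Treated mice received 1 mg of progesterone in 100 µl of sesame oil under the skin once a day and control mice the same volume of oil, and glands were collected 4, 16, 28 or 76 h after the first injection. This gave 8 groups, progesterone and oil at each of 4 times, with 3 arrays a group. Each array, an Affymetrix Mouse Genome 430 2.0 chip read with biotin-labelled RNA, carried pooled RNA of 5 mice, 15 mice a group. Dosing was daily, so time after the first dose and the number of doses cannot be told apart at the later times. Errors and p-values measure the spread between pools, not between single mice.

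Whole gland was profiled, with no sorting of cells, so a change in how many cells of a type the gland held and a change in RNA per cell cannot be told apart. The adipocyte gene Adipoq read 10156 to 12145 on the 24 arrays, and the luminal epithelial keratins Krt8 and Krt18 read 684 to 3158 and 1524 to 4523. Arrays of the same group correlated at 0.966 to 0.993, and no arrays were identical. A pair of progesterone arrays stood apart from the others of their group. Without replicate 3 of progesterone at 4 h the genes that passed the test at 4 h went from 23 to 477, and without replicate 1 of progesterone at 16 h those at 16 h went from 38 to 1843. The 28 h oil arrays stood apart from the other oil arrays, with summed intensities of 12 stromal matrix genes of 55926 to 61036 against 71647 to 83605 on the other 9. Comparisons at 28 h therefore appear below with the oil arrays of other times as well. A gene is said to have risen, fallen or changed when its Benjamini-Hochberg adjusted p over all 12352 genes was under 0.05 in limma, a linear model with moderated errors fitted to all 24 arrays. Intensities are on the linear scale of the authors' table, differences are log2 progesterone minus oil at the same time, and levels of different probe sets are not compared with each other.

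Sequence shared by some of these genes gives a view of them that did not depend on the arrays. RefSeq promoters (build GRCm38.p6) were found for 31 of the 36 genes, and the 250 bases before each start site were searched on both strands for the ER stress element, CCAAT followed after 9 bases by CCACG, to which ATF6 and XBP1 are known to bind. It was present in 8 of the 31 genes (25.8%), namely Hspa5, Hsp90b1, Dnajc3, Calr, Canx, Creld2, Pdia6 and Syvn1, against 35 of 27025 genes with a promoter (0.13%). Hsp90b1 held 2 copies that did not overlap. The shorter ER stress element II, ATTGG followed after 1 base by CCACG, was in Herpud1 alone among the members (3.23%) and in 0.037% of all genes. The sequence TGACGTGG, another XBP1 and ATF6 element, was in 0 members and in 0.603% of genes. The C/EBP-ATF element TGATGNAAN, bound by ATF4 with a partner, was in Herpud1, Asns and Chac1 (9.68% of members) and in 3.89% of genes. No matches of different elements overlapped in a member. Below, 5 promoter stretches are shown 5′ to 3′ on the strand of the gene, with the match in capitals, because these genes return in the results. Hspa5 is the reference gene of the response, Pdia6 and Asns changed at 76 h, and Canx and Herpud1 differed between oil groups.
Hspa5 chr2:34772000-34772068 (plus strand): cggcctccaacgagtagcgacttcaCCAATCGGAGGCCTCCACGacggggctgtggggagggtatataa
Pdia6 chr12:17266466-17266534 (plus strand): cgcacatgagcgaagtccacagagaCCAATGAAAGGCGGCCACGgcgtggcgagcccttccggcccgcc
Canx chr11:50325775-50325843 (minus strand): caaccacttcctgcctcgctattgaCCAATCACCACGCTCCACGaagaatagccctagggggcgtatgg
Herpud1 chr8:94386352-94386412 (plus strand): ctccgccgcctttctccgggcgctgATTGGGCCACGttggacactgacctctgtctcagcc
Asns chr6:7693210-7693257 (minus strand): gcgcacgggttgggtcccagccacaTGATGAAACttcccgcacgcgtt
The match lay 65 to 47 bases before the start in Hspa5, 98 to 80 in Pdia6, 145 to 127 in Canx, 52 to 42 in Herpud1 and 23 to 15 in Asns. A match is a run of letters and not a measured binding site.

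In the first comparisons, at 4, 16 and 28 h, none of the 36 genes passed the test in limma. Over all genes tested, 0.186% passed at 4 h, 0.308% at 16 h and 2.53% at 28 h. At an unadjusted p under 0.05 there were 9 members at 4 h (3 higher and 6 lower, against 12.6% of all genes), 7 at 16 h (5 higher and 2 lower, against 17.7%) and 5 at 28 h (1 higher and 4 lower, against 12.4%). The median difference of the 36 was -0.0020 at 4 h, -0.075 at 16 h and -0.044 at 28 h, beside medians of -0.010, -0.072 and 0.0033 over all genes. Arrays of the 2 treatments did not overlap for 7 members at 4 h (4 higher and 3 lower), 8 at 16 h (1 higher and 7 lower) and 9 at 28 h (2 higher and 7 lower), where the shares of all genes were 19.0%, 17.1% and 12.0%.

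**Figure D1:**
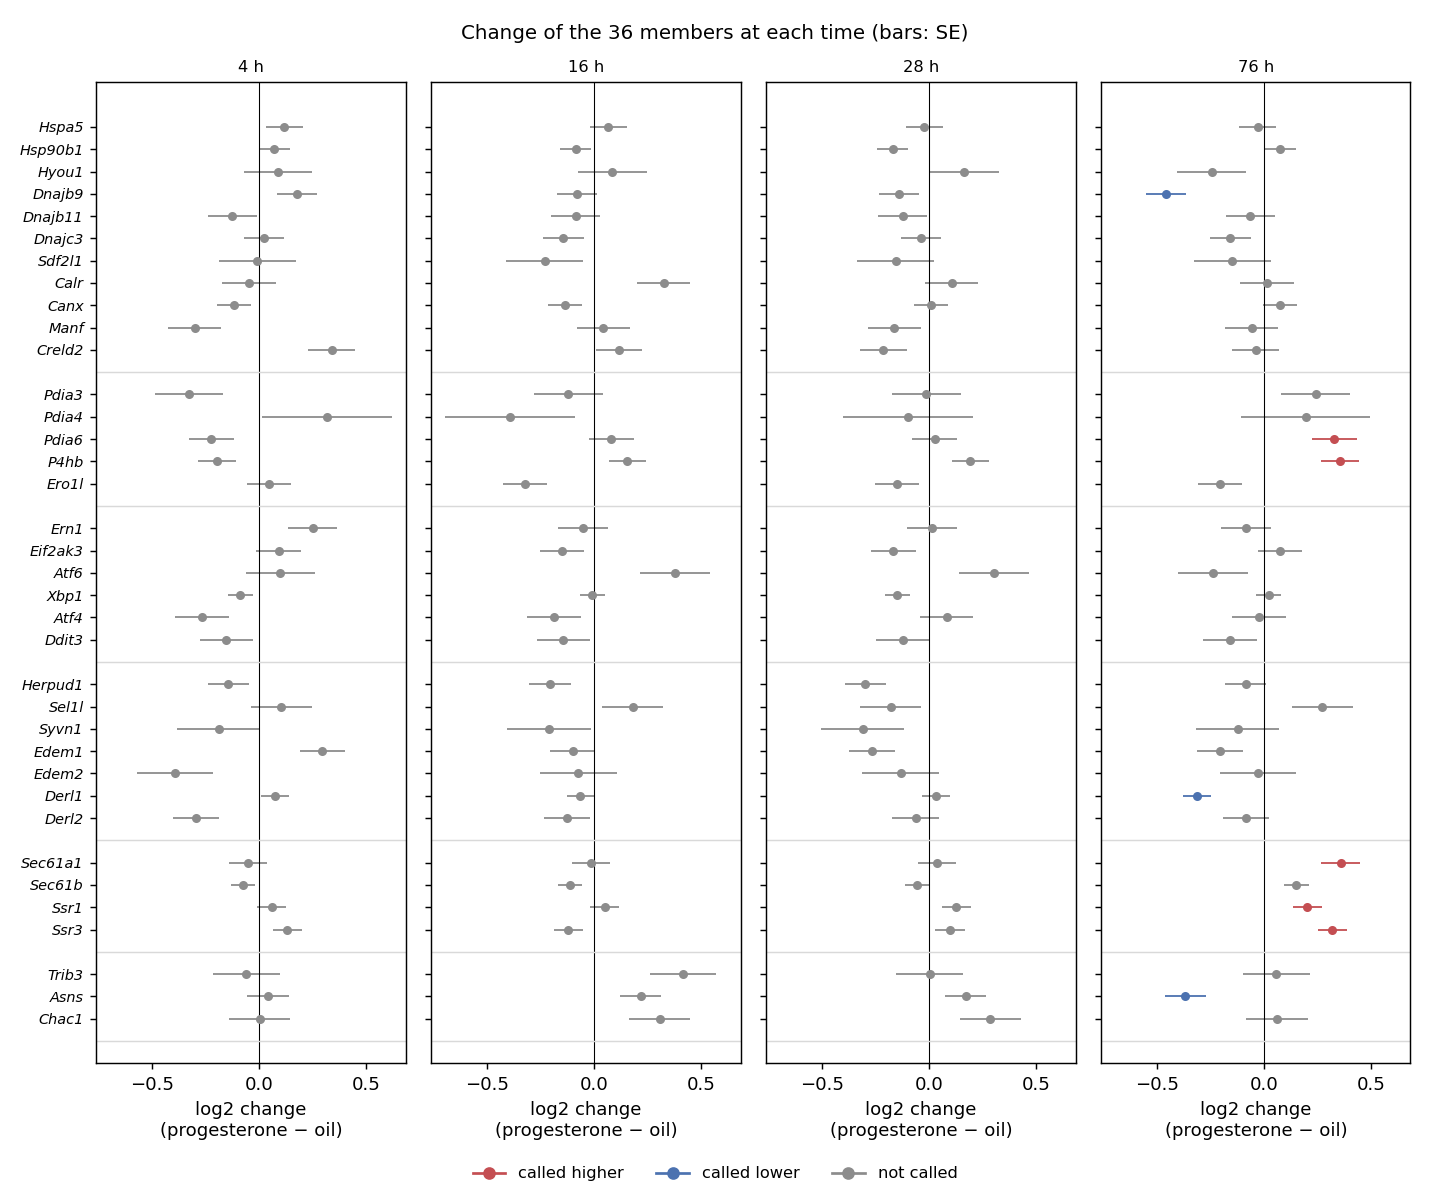
Difference between progesterone and oil (log2, horizontal axis) for each of the 36 genes at 4, 16, 28 and 76 h, with bars showing the standard error of the fit and grey lines dividing the 6 role groups. Coloured points passed the test, which happened at 76 h only, for 5 genes higher and 3 lower.

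Hspa5 encodes BiP, the main ER chaperone, which also holds the 3 sensors inactive while bound to them. At 4 h Hspa5 read 3896, 3547 and 4174 on the oil arrays and 3712, 4264 and 4662 on the progesterone arrays. At 16 h Hspa5 read 4355, 4227 and 4185 on the oil arrays and 4699, 4989 and 3778 on the progesterone arrays. The progesterone arrays of 16 h spread more widely than the oil arrays and enclosed all 3 of them. At 28 h Hspa5 read 3903, 4023 and 3894 on the oil arrays and 4165, 3759 and 3736 on the progesterone arrays. At 76 h Hspa5 read 4017, 3756 and 3940.1 on the oil arrays and 3721, 3944 and 3821 on the progesterone arrays. The treatments overlapped at each of the 4 times, and the largest difference was 0.12 (SE 0.086, adjusted p = 0.614) at 4 h. Its highest array was 1.41 times its lowest over all 24.

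Some members were split by the array that stood apart at 4 h. Manf, a secreted ER stress protein that binds BiP, read 1341, 1760.5 and 1780.2 on the oil arrays and 1107, 1169.5 and 1742 on the progesterone arrays at 4 h. Pdia3, an isomerase that works with the lectins calnexin and calreticulin, read 2616, 2434 and 3284 on the oil arrays and 1874, 1892 and 2996 on the progesterone arrays at that time. In both genes replicates 1 and 2 of progesterone were lower than every oil array and replicate 3 was not. Without that replicate, 3 members passed the test at 4 h, where 3.86% of all genes did, 105 of those 477 genes being higher. The 3 members were all lower: Manf at -0.50 (adjusted p = 0.00664), Pdia3 at -0.55 (adjusted p = 0.0395) and Pdia6 at -0.36 (adjusted p = 0.048). With it, their differences were -0.30, -0.33 and -0.22, and none of the 3 passed (adjusted p = 0.3, 0.404 and 0.381). The log2 ratio of 3′ to 5′ signal of the beta-actin control probe sets, a measure of RNA integrity and labelling, was 0.506 to 0.59 on the progesterone arrays of 4 h and 0.408 to 0.437 on the oil arrays of 4 h, and its part in these differences was not tested.

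At 16 h the 3 genes grouped as targets of ATF4 or CHOP were each higher with progesterone on the probe set used. Their unadjusted p was under 0.05, and none passed after adjustment. Chac1, which degrades glutathione, read 126, 147 and 167.8 on the oil arrays and 168.1, 185 and 189 on the progesterone arrays. These arrays did not overlap, but the highest oil array and the lowest treated array were almost equal. Trib3, a pseudokinase that restrains ATF4, differed by 0.42 (SE 0.16, adjusted p = 0.201). The other probe set of Trib3 had the opposite sign, at -0.53. The difference for Asns, asparagine synthetase, was 0.22 (SE 0.096, adjusted p = 0.251), and 0.028 on its other probe set. Atf4 itself differed by -0.19 (SE 0.13, adjusted p = 0.427) and Ddit3, which encodes CHOP, by -0.14 (SE 0.13, adjusted p = 0.547). The sign of these factors was opposite to that of the 3 targets on the probe sets used, but not to that of the other Trib3 probe set. Without replicate 1 of progesterone at 16 h, 3 other members passed, where 14.9% of all genes did. They were Atf6 at 0.57 (adjusted p = 0.0245), Calr at 0.43 (adjusted p = 0.0356) and Ero1l at -0.43 (adjusted p = 0.0126). With all arrays Atf6 differed by 0.38 (adjusted p = 0.245), Calr by 0.33 (adjusted p = 0.213) and Ero1l by -0.32 (adjusted p = 0.166).

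At 76 h, after repeated doses, 8 of the 36 genes changed (22.2%), against 17.8% of all genes. The genes that rose were Sec61a1, P4hb, Pdia6, Ssr3 and Ssr1, 5 genes beside 11.1% of all genes, and those that fell were Dnajb9, Asns and Derl1, 3 genes beside 6.70%. Changes were small, from a fall of 27.0% for Dnajb9 to a rise of 28.2% for Sec61a1. The members' share is near that of all genes, and their median difference was -0.027 against 0.024. The arrays of the treatments did not overlap for 14 members (9 higher and 5 lower), where 44.7% of all genes did not. Counts by role group were small, and differences between the groups were not tested. Of the 4 translocation genes 3 rose and 0 fell, and of the 5 disulfide genes 2 rose and 0 fell. Chaperones and lectins had 0 of 11 higher and 1 lower, ER-associated degradation 0 of 7 higher and 1 lower, ATF4 and CHOP targets 0 of 3 higher and 1 lower, and sensors and transcription factors 0 of 6 in either direction.

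Other features of the gland moved at the same time. At 76 h, 11 of 14 luminal epithelial markers rose, and their summed intensity was 20127 to 22609.8 with progesterone and 7777 to 9557 with oil. Of 9 basal epithelial markers 7 rose, with sums of 10945 to 11662 and 6876 to 7749. All 11 cell division genes tested rose, and 8 of 12 stromal matrix genes rose. Lymphocyte markers fell in 5 of 8 cases, with sums of 10527 to 12298 with progesterone and 13967 to 15624 with oil. Of 8 plasma cell markers 2 rose and 1 fell, and their sums overlapped at 6585 to 8177 and 5734 to 7738. Of 8 adipocyte markers 2 fell, with sums of 52068 to 57252 and 59189.9 to 59489. The part of these shifts in the changes of the 36 genes was not tested. The summed intensity of the 36 genes themselves was 55742 to 59234 with progesterone and 54625 to 56487 with oil at 76 h, ranges that overlap.

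**Figure D2:**
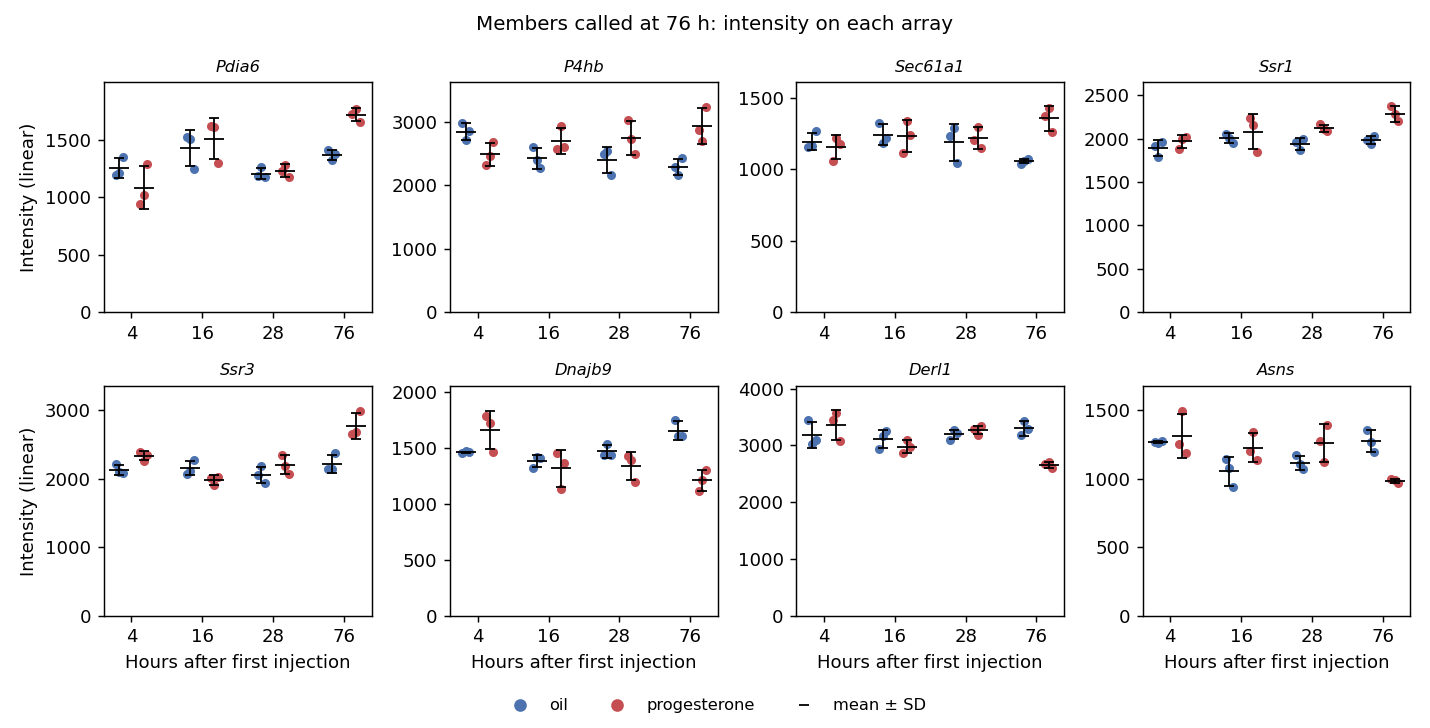
Linear intensity (vertical axis, from 0) on each of the 24 arrays against hours after the first injection for the 8 genes that changed at 76 h, oil in blue and progesterone in red, with the mean and SD of each group of 3. At 76 h the red and blue points are apart in all 8 panels, and at the earlier times they overlap for most genes.

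All 4 translocation genes were higher on every treated array than on any oil array at 76 h, where arrays of 44.7% of all genes did not overlap. Sec61a1 (probe set 1416189_a_at), the pore-forming subunit of the translocation channel, read 1039, 1058 and 1068 on the oil arrays and 1372, 1430.1 and 1259.6 on the progesterone arrays at 76 h. All 3 treated arrays were higher than the 3 oil arrays, with means of 1055 ± 14.8 in oil and 1354 ± 86.6 with progesterone (SD, n = 3). The difference was 0.36 (SE 0.089, adjusted p = 0.00619). At 4 h Sec61a1 read 1156, 1158 and 1263 on the oil arrays and 1059, 1220.2 and 1176 on the progesterone arrays. At 16 h Sec61a1 read 1324, 1181 and 1216 on the oil arrays and 1112, 1338 and 1239 on the progesterone arrays. At 28 h Sec61a1 read 1231, 1290.1 and 1044 on the oil arrays and 1205, 1297 and 1149.8 on the progesterone arrays. The treatments overlapped at these 3 times, and the oil arrays of 76 h lay at the bottom of the range of the other oil arrays (1044 to 1324). Against the 9 oil arrays of 4, 16 and 28 h its difference was 0.17 and did not pass (adjusted p = 0.085). Of its 5 other probe sets 1 passed at 76 h, also higher, and with the mean of all of them the difference was 0.26 (adjusted p = 0.165).

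Ssr3 (1415700_a_at) and Ssr1 (1417763_at) encode the gamma and alpha subunits of the translocon-associated protein complex, which sits beside the channel and assists the entry of some proteins. Ssr3 read 2142, 2142 and 2368 on the oil arrays and 2652, 2670.4 and 2987 on the progesterone arrays at 76 h. Replicate 3 was the highest of each group, and the treatments did not overlap. Its difference was 0.32 (SE 0.069, adjusted p = 0.00186), from 2218 ± 131 in oil and 2769.8 ± 188 with progesterone (SD, n = 3). Ssr3 at 4 h read 2205, 2091 and 2083 on the oil arrays and 2386, 2262 and 2346 on the progesterone arrays. At 16 h Ssr3 read 2073, 2106 and 2271 on the oil arrays and 2009.6, 1902 and 2024 on the progesterone arrays. The treated arrays were above all oil arrays at 4 h and below them at 16 h, and neither difference passed (0.13, adjusted p = 0.434, and -0.12, adjusted p = 0.355). At 28 h Ssr3 read 2045, 2179 and 1939 on the oil arrays and 2349, 2182 and 2071 on the progesterone arrays. The effect on Ssr3 differed between times (adjusted p = 0.0259, moderated F-test), as this test found for 6 members against 10% of all genes. Its other probe set also passed at 76 h.

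Ssr1 read 1983, 1940.0 and 2029 on the oil arrays and 2377, 2281 and 2197 on the progesterone arrays at 76 h. The treated arrays were again the 3 highest of the 6. The difference was 0.20 (SE 0.068, adjusted p = 0.0403), from 1984 ± 44.6 in oil and 2285 ± 90.4 with progesterone (SD, n = 3). At 4 h Ssr1 read 1911, 1785 and 1963 on the oil arrays and 1881, 1998 and 2018 on the progesterone arrays. At 16 h Ssr1 read 2058, 2005 and 1944 on the oil arrays and 2233, 2158 and 1849 on the progesterone arrays. The arrays overlapped at both times. At 28 h Ssr1 read 1962, 1863 and 1998 on the oil arrays and 2165, 2111 and 2084 on the progesterone arrays, with every treated array above every oil array and a difference of 0.13 that did not pass (adjusted p = 0.482). The call at 76 h was lost without any 1 of the 3 oil arrays of 76 h, replicate 1 or 2 of progesterone at 76 h or replicate 2 of oil at 16 h, with adjusted p up to 0.168, and also after centring on array medians (adjusted p = 0.0763). Sec61b, the small subunit of the channel, read 2628, 2851 and 2751 on the oil arrays and 3088, 3071 and 2983 on the progesterone arrays at 76 h. These arrays did not overlap either, but the difference of 0.15 (SE 0.057) missed the threshold (adjusted p = 0.0667). In Sec61b the oil arrays of 76 h were low beside those of the other times (2809 to 3207), and against those the difference was 0.011 (adjusted p = 0.889).

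Among the disulfide enzymes all 5 had arrays that did not overlap at 76 h, 4 of them higher with progesterone. Arrays of 44.7% of all genes did not overlap at that time. P4hb (1437465_a_at), protein disulfide isomerase and also the beta subunit of the prolyl hydroxylase that modifies collagen, read 2282, 2159 and 2423 on the oil arrays and 2866, 2696 and 3240.2 on the progesterone arrays at 76 h. The lowest treated array was above the highest oil array, with means of 2288 ± 132 in oil and 2934 ± 278 with progesterone (SD, n = 3). The difference was 0.36 (SE 0.088, adjusted p = 0.00572), a rise of 28.0%. Stromal matrix genes, which include collagens, rose in 8 of 12 cases at this time, and their part in the P4hb result was not tested. At 4 h P4hb read 2978, 2709 and 2848 on the oil arrays and 2323, 2465 and 2676 on the progesterone arrays. At 16 h P4hb read 2601, 2395 and 2277 on the oil arrays and 2568, 2941 and 2601 on the progesterone arrays. At 28 h P4hb read 2493, 2538 and 2167 on the oil arrays and 3029, 2722 and 2490.4 on the progesterone arrays. The treated arrays of 4 h were all below the oil arrays, and those of 16 and 28 h overlapped with oil. The effect differed between times (adjusted p = 0.0243, moderated F-test), and the 4 differences in time order were -0.19, 0.16, 0.19 and 0.36. Oil arrays of P4hb were themselves lower at 76 h than at 4 h, by -0.31 (adjusted p = 0.0485).

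Pdia6 (1423648_at), an isomerase that also binds the sensor IRE1, read 1406, 1325 and 1371 on the oil arrays and 1725, 1768 and 1657 on the progesterone arrays at 76 h. The 3 treated arrays were the highest of all 24, since those of 4 to 28 h reached at most 1616. The difference was 0.33 (SE 0.10, adjusted p = 0.031), from 1367 ± 40.5 in oil and 1717 ± 55.9 with progesterone (SD, n = 3). At 4 h Pdia6 read 1192, 1210.2 and 1352 on the oil arrays and 938, 1016 and 1290.4 on the progesterone arrays. At 16 h Pdia6 read 1525, 1507 and 1245 on the oil arrays and 1616, 1611 and 1300.1 on the progesterone arrays. In both treatments of 16 h replicate 3 was lower than the other 2 arrays. At 28 h Pdia6 read 1184, 1258 and 1173 on the oil arrays and 1230.0, 1283 and 1172 on the progesterone arrays. The call at 76 h was lost without any 1 of the 3 oil arrays of 76 h or without replicate 1 or 2 of progesterone, with adjusted p up to 0.103. Pdia6 is the single gene among the 8 holding the ER stress element shown above that passed the test at 76 h.

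Pdia3, Pdia4 and Ero1l complete the disulfide group and did not pass. Pdia3 read 2998, 2581 and 2964 on the oil arrays and 3277, 3229 and 3586 on the progesterone arrays at 76 h, a difference of 0.24 (SE 0.16, adjusted p = 0.337). Pdia4, a further isomerase, read 465, 418 and 447 on the oil arrays and 538, 489 and 495 on the progesterone arrays, a difference of 0.19 with the widest error of the 36 genes (SE 0.30, adjusted p = 0.726). Over all 24 arrays Pdia4 ran from 334 to 1043, a 3.12-fold range and the widest of the members. Ero1l, the oxidase that recharges the isomerases, read 438, 416 and 429.9 on the oil arrays and 369, 369.9 and 376 on the progesterone arrays. It was lower on every treated array, by -0.20 (SE 0.10, adjusted p = 0.193), and so ran against the other 4 genes on the probe sets used. These signs depend on the probe set. The other probe set of Pdia4 differed by -0.38 at 76 h, and those of Ero1l by 0.052 and -0.41, and none of them passed.

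The members that fell at 76 h came from 3 groups. Dnajb9 (1417191_at), also known as ERdj4, is an XBP1 target that acts as a co-chaperone of BiP and keeps IRE1 inactive. It read 1754, 1611 and 1611 on the oil arrays and 1115, 1213 and 1308 on the progesterone arrays at 76 h. The highest treated array was well below the lowest oil array, with means of 1659 ± 82.9 in oil and 1212 ± 96.5 with progesterone (SD, n = 3). The difference of -0.45 (SE 0.094, adjusted p = 0.00122) was the largest of the 36 genes at 76 h. At 4 h Dnajb9 read 1459, 1472 and 1464 on the oil arrays and 1789, 1730.5 and 1468 on the progesterone arrays. At 16 h Dnajb9 read 1325, 1426 and 1415 on the oil arrays and 1460.4, 1137 and 1368 on the progesterone arrays. At 28 h Dnajb9 read 1442, 1539.6 and 1439.6 on the oil arrays and 1431, 1398 and 1197 on the progesterone arrays. Replicates 1 and 2 of progesterone were higher than all oil arrays at 4 h, and at 28 h all 3 treated arrays were lower. The 4 differences in time order were 0.18, -0.078, -0.14 and -0.45, and they differed between times (adjusted p = 0.0172, moderated F-test). Against other-time oil its difference at 76 h was -0.25 (adjusted p = 0.0135), since the oil arrays of 76 h were the highest oil arrays.

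Derl1 (1437723_s_at) encodes derlin-1, a membrane protein through which misfolded proteins leave the ER. It read 3176, 3438 and 3290.3 on the oil arrays and 2672, 2702 and 2600.4 on the progesterone arrays at 76 h. These 3 treated arrays were the lowest of all 24, the 18 arrays of earlier times lying between 2874 and 3578. The difference was -0.31 (SE 0.064, adjusted p = 0.00121), a fall of 19.4% from 3301 ± 131 in oil and 2658 ± 52.4 with progesterone (SD, n = 3). At 4 h Derl1 read 3449, 3027 and 3093 on the oil arrays and 3439.6, 3578 and 3073 on the progesterone arrays. At 16 h Derl1 read 2934, 3163 and 3249 on the oil arrays and 2874, 3093 and 2974 on the progesterone arrays. At 28 h Derl1 read 3099, 3263 and 3220.5 on the oil arrays and 3287, 3191 and 3337 on the progesterone arrays. The treatments overlapped at each of these times, and the effect differed between times (adjusted p = 0.0204, moderated F-test). Of its 3 other probe sets 2 also passed at 76 h, both lower.

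Asns (1451095_at), asparagine synthetase and a target of ATF4, read 1356, 1265 and 1196 on the oil arrays and 997, 991 and 969 on the progesterone arrays at 76 h. Treated arrays lay close together and below all oil arrays, with means of 1272 ± 80.4 in oil and 986 ± 14.4 with progesterone (SD, n = 3). The difference was -0.37 (SE 0.096, adjusted p = 0.00872). At 4 h Asns read 1267, 1259 and 1278 on the oil arrays and 1251, 1496 and 1189.7 on the progesterone arrays. At 16 h Asns read 1146, 1076 and 940.1 on the oil arrays and 1202, 1341 and 1134 on the progesterone arrays. At 28 h Asns read 1173, 1106 and 1075 on the oil arrays and 1274, 1121 and 1395 on the progesterone arrays. The treatments overlapped at those 3 times, and the 4 differences of 0.043, 0.22, 0.17 and -0.37 differed between times (adjusted p = 0.0168, moderated F-test). Without replicate 1 of oil at 76 h, its highest oil array, the difference was -0.32 (adjusted p = 0.0558). That array decided other calls too: without it 5 of the 36 genes passed at 76 h, Pdia6 and Ssr1 being the others lost (adjusted p = 0.0598 and 0.1), and the number with an effect that differed between times went from 6 to 1. Without replicate 2 of oil at 76 h that number was 2, and without replicate 1 or replicate 3 of progesterone at 76 h it was 3. The other targets of ATF4 and CHOP differed at 76 h by 0.058 for Trib3 (adjusted p = 0.849) and 0.062 for Chac1 (adjusted p = 0.821).

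Edem1 (1451218_at), a lectin that hands misfolded glycoproteins to the degradation machinery, passed the F-test between times (adjusted p = 0.0485) without passing at any single time. At 4 h Edem1 read 761, 772 and 825 on the oil arrays and 918, 973 and 1004 on the progesterone arrays. At 16 h Edem1 read 1017, 915 and 867 on the oil arrays and 985, 925 and 721 on the progesterone arrays. Treated arrays were all above oil at 4 h and overlapped with it at 16 h. At 28 h Edem1 read 900.3, 1009 and 979 on the oil arrays and 689, 842 and 884 on the progesterone arrays. At 76 h Edem1 read 896, 867 and 832 on the oil arrays and 740.4, 802 and 712 on the progesterone arrays. Treated arrays were all below oil at both late times. Its differences in time order were 0.30, -0.099, -0.27 and -0.20, with standard errors of 0.11. A second probe set of Edem1 passed at 28 h, lower by 0.68 on the log2 scale (adjusted p = 0.00525 among 21326 probe sets). That difference was taken against the 28 h oil arrays, which stood apart. The same probe set also differed between the oil groups (adjusted p = 0.0059, moderated F-test).

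The remaining degradation genes did not pass at any time. Herpud1, Sel1l, Syvn1, Edem2 and Derl2 differed at 76 h by -0.085, 0.27, -0.12, -0.027 and -0.085, with adjusted p from 0.205 to 0.949. Sel1l, the scaffold of the ubiquitin ligase Syvn1, was the one gene of this group with all treated arrays above oil at 76 h (1158, 1053 and 1181 on the oil arrays and 1300.0, 1357 and 1440.1 on the progesterone arrays). Syvn1 itself ranged from 409 to 1158 over the 24 arrays.

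The other 10 chaperones and lectins differed from oil at 76 h by -0.24 to 0.076, and their arrays overlapped in every case. Hsp90b1, the ER form of Hsp90, read 3901 to 5401, with a median of 4706, on the 24 arrays. Calr and Canx, the lectins that hold glycoproteins during folding, read 2821 to 4698 and 2285 to 4147. At 76 h they differed by 0.015 (adjusted p = 0.959) and 0.075 (adjusted p = 0.581). Hyou1, a BiP-related chaperone, read 392 to 773, and Dnajb11 and Dnajc3, which are co-chaperones of BiP, read 708 to 1038 and 1399 to 1873. Sdf2l1, Manf and Creld2, genes that ER stress is known to induce, read 224 to 412, 1107 to 2199.5 and 529 to 868. Creld2 had all treated arrays above oil at 4 h (646, 663 and 868 against 556, 529 and 625) and all below it at 28 h, with differences of 0.34 and -0.21 that did not pass (adjusted p = 0.181 and 0.449). Against the other-time oil arrays its differences were 0.061 at 4 h and 0.080 at 28 h, the latter with the opposite sign (adjusted p = 0.73 and 0.714).

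Sensors and transcription factors gave no difference that passed at any of the 4 times. At 76 h the differences were -0.082 for Ern1, 0.077 for Eif2ak3, -0.24 for Atf6, 0.024 for Xbp1, -0.024 for Atf4 and -0.16 for Ddit3, and the treatments overlapped for all 6. Their adjusted p at 76 h ran from 0.356 to 0.93, and 0 of the 6 had an unadjusted p under 0.05 then. The arrays measure the summed transcript of Xbp1 and not its splicing by IRE1, and neither phosphorylation of the sensors nor cleavage of ATF6 was measured.

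Averaged over the 4 times, 3 members passed, against 12.5% of all genes. Ssr1 was higher by 0.11 (SE 0.034, adjusted p = 0.0341) and Ssr3 by 0.11 (SE 0.035, adjusted p = 0.0409). Herpud1, an ER membrane protein of the degradation complex and a classical stress target, was lower by -0.18 (SE 0.048, adjusted p = 0.0136), with a negative difference at each time (-0.14, -0.20, -0.30 and -0.085). The largest, at 28 h, was taken against the oil arrays that stood apart, and against the other-time oil arrays it was -0.018 (adjusted p = 0.941). The number was 1 without replicate 2 of oil at 4, 16 or 76 h, without replicate 1 of oil at 76 h, or without replicate 1 of progesterone at 28 h. It was 5 without replicate 3 of oil at 28 h, 6 without replicate 3 of progesterone at 28 h and 8 without replicate 1 of progesterone at 16 h.

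The oil groups differed among themselves in 3 of the 36 genes, Xbp1, Herpud1 and Canx, against 12.2% of all genes in the same F-test. This result depends on the probe set read. Other probe sets of Edem1, Dnajc3 and Syvn1 passed this F-test, although the probe sets used for these genes did not. Xbp1 (1437223_s_at), the factor that drives much of the chaperone and degradation program, had the smallest adjusted p (8.08e-04). Another of its probe sets also passed the oil F-test (adjusted p = 0.00626), and its remaining probe sets did not (adjusted p = 0.406 and 0.163). At 4 h Xbp1 read 4183, 4365 and 4498 on the oil arrays and 3811, 4074 and 4407 on the progesterone arrays. At 16 h Xbp1 read 4246, 4290.3 and 4073 on the oil arrays and 4296, 4057 and 4196 on the progesterone arrays. These oil arrays were close to each other in level. At 28 h Xbp1 read 4542, 4890.1 and 4849 on the oil arrays and 4496, 4334 and 4076 on the progesterone arrays. At 76 h Xbp1 read 3642, 3537 and 3708 on the oil arrays and 3538, 3658 and 3877 on the progesterone arrays. The oil arrays of 28 h were the 3 highest of the 12 oil arrays and those of 76 h the 3 lowest, with no overlap with the others. Oil at 76 h was below oil at 4 h by -0.26 (adjusted p = 0.0194). The choice of control therefore decides the sign of the progesterone difference at 76 h, which was 0.024 against oil of 76 h (adjusted p = 0.834) and -0.26 against the other oil arrays (adjusted p = 1.70e-04).

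**Figure D3:**
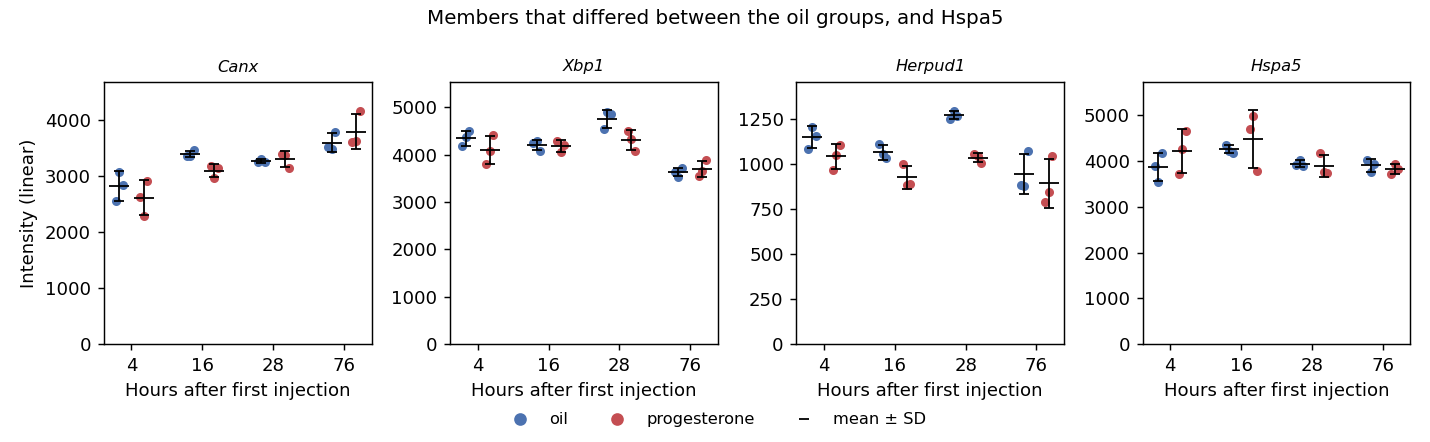
Linear intensity (vertical axis, from 0) on each of the 24 arrays against hours after the first injection for Canx, Xbp1 and Herpud1, which differed between the oil groups, and for Hspa5, which did not pass that test. Oil is blue and progesterone red, with mean and SD of each group of 3. For Xbp1 the 28 h oil points are the highest, and the 76 h groups have the lowest means.

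Herpud1 (1448185_at), whose promoter holds the ER stress element II, had the same order of oil group means (adjusted p = 0.0224). Its other probe set also passed the oil F-test (adjusted p = 0.0137). At 4 h Herpud1 read 1085, 1209 and 1159 on the oil arrays and 969, 1054 and 1108 on the progesterone arrays. At 16 h Herpud1 read 1112, 1054 and 1032 on the oil arrays and 1002, 885 and 892 on the progesterone arrays. At 28 h Herpud1 read 1250.2, 1296 and 1270.2 on the oil arrays and 1056, 1047 and 1006 on the progesterone arrays. The oil arrays of 28 h were the highest 3 of all 24, and at 16 and 28 h each treated array was below each oil array. At 76 h Herpud1 read 885, 878 and 1075 on the oil arrays and 789, 848 and 1047 on the progesterone arrays, with replicate 3 the highest of both groups. Canx (1415692_s_at, calnexin) differed between the oil groups in another order (adjusted p = 0.0221). Neither of its other probe sets passed the oil F-test (adjusted p = 0.388 and 0.257). At 4 h Canx read 2548, 3076 and 2837 on the oil arrays and 2627, 2285 and 2912 on the progesterone arrays. At 16 h Canx read 3349.7, 3359.7 and 3452 on the oil arrays and 3177, 2954 and 3137 on the progesterone arrays. The oil arrays of 4 h were the lowest of the oil arrays. At 28 h Canx read 3252, 3306 and 3239.7 on the oil arrays and 3380.4, 3374 and 3132 on the progesterone arrays. At 76 h Canx read 3521, 3471 and 3778 on the oil arrays and 3606, 3611 and 4147 on the progesterone arrays. Oil at 76 h was above oil at 4 h by 0.35 (adjusted p = 0.0194), and no difference between treatments passed at any time. From 4 to 76 h of oil, 3 members passed (Canx higher, Xbp1 and P4hb lower), against 3.57% of all genes. The number passing the F-test over the oil groups was 7 without replicate 3 of oil at 28 h and 5 without replicate 3 of progesterone at 4 h or at 28 h.

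Oil arrays of 28 h against the other 9 oil arrays gave 3 members, all higher, and 7.60% of all genes. Xbp1 was higher by 0.23 (adjusted p = 0.00262), Herpud1 by 0.28 (adjusted p = 0.0304) and Creld2 by 0.29 (adjusted p = 0.0448). Plasma cells, which secrete antibody and are rich in Xbp1, were represented by 8 markers, of which 4 were higher in oil of 28 h and 0 lower. Their summed intensity was 10919.8 to 12513 on the oil arrays of 28 h and 5734 to 8545 on the other oil arrays. Of 8 lymphocyte markers 1 was higher and 0 lower. Their sums were 17148 to 19858 and 13967 to 16807, while their mean log2 deviations from the average of all 24 arrays overlapped (0.13 to 0.51 and -0.057 to 0.27). Of 6 milk protein genes 2 were higher in oil of 28 h and 0 lower, and their mean log2 deviation from the average of all 24 arrays was 0.88 to 1.79 there against -0.45 to -0.11 on the other oil arrays, while their summed intensities overlapped (9410 to 11961 and 9674 to 11277). Of 11 cell division genes 5 were higher, with sums of 3363 to 3835 and 1998 to 2954. Of 10 macrophage markers 8 were lower, with sums of 15703 to 18773 and 20017 to 24171, and 10 of the 12 stromal matrix genes were lower. Of 12 skeletal muscle genes 5 were lower and 0 higher, with sums that overlapped (12226.6 to 19293.5 and 9358 to 59936). These shifts moved with the 3 genes, and their part in the result was not tested.

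Progesterone arrays were also set against the 9 other-time oil arrays, a comparison in which time and treatment differ together. At 4 h 4 members passed (6.51% of all genes), all lower, and they were Manf, Canx, Derl2 and Pdia6. At 16 h 3 passed (4.53%), Atf6 and Chac1 higher and Syvn1 lower. At 28 h 0 passed in limma (0.874% of all genes, and 4 members at an unadjusted p under 0.05), and at 76 h 12 (32.6%). Of the 36 differences 10 at 28 h had the opposite sign to that against oil of the same time, and 8 at 76 h. Among these 18, Xbp1 at 76 h alone passed with other-time oil and none passed with oil of the same time. The 12 at 76 h were Ssr3, Pdia6, Canx, Ssr1 and P4hb higher and Herpud1, Xbp1, Dnajb9, Derl1, Edem1, Ero1l and Asns lower. These comparisons share progesterone arrays with those above and are not independent of them.

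The wider secretory pathway was read through 8 further lists, chosen with earlier results of these data known. Of their 168 genes 37 changed at 76 h (22%, against 17.8% of all genes), 33 higher and 4 lower, where 11.1% of all genes rose and 6.70% fell. Against the other-time oil arrays 65 passed, 45 higher and 20 lower, where 32.6% of all genes did. Of 27 genes of transport between ER and Golgi 9 rose and 0 fell at 76 h. The largest rises were 0.82 for Kdelr3 (adjusted p = 0.00141), a receptor that returns escaped chaperones to the ER, 0.55 for Sec24d (adjusted p = 0.00389), a cargo adaptor of the outward coat, and 0.31 for Kdelr2 (adjusted p = 0.00447). Of 24 other ER folding proteins 8 rose and 1 fell. They were led by Rcn1 at 1.11 (adjusted p = 6.02e-08), a calcium-binding protein of the ER, by Fkbp11 at 0.82 (adjusted p = 2.43e-04) and by Fkbp14 at 0.71 (adjusted p = 0.00154), both prolyl isomerases. Creld1 fell by 0.39 on the log2 scale (adjusted p = 0.0438). Fkbp11 is also in the plasma cell marker list. The shares of the next 2 lists were below the 17.8% of all genes. N-glycosylation had 3 of 22 higher and 0 lower (13.6%), with Stt3a, a catalytic subunit of oligosaccharyltransferase, at 0.39 (adjusted p = 4.76e-04). Other targeting and translocation genes had 2 of 17 higher and 0 lower (11.8%), Srp72 of the signal recognition particle at 0.26 and Ssr2, a partner of Ssr1 and Ssr3, at 0.24 (adjusted p = 0.0296 and 0.0446).

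The remaining lists hold degradation, signalling, amino acid supply and folding outside the ER. Of 17 other degradation genes 0 passed at 76 h in limma (3 at an unadjusted p under 0.05). Of 16 other stress signalling genes 2 rose and 0 fell (12.5%): Creb3l2, a factor that raises secretory genes, at 0.53 (adjusted p = 6.33e-04) and Mbtps1, the protease that cleaves ATF6 and its relatives, at 0.26 (adjusted p = 0.0319). Amino acid response genes had 3 of 24 higher and 2 lower. The largest rise there was 1.46 for Slc7a5 (adjusted p = 5.15e-04), a carrier of large neutral amino acids, and Cth and Aldh18a1, enzymes of cysteine and proline synthesis, fell by 0.55 and 0.38 on the log2 scale (adjusted p = 0.021 and 0.0433). Cytosolic and mitochondrial chaperones had 6 of 21 higher and 1 lower, and 5 of the 6 were subunits of the chaperonin TRiC (Cct2, Cct4, Cct5, Cct7 and Cct8, from 0.30 to 0.39). The other was Hspa1b at 0.59 (adjusted p = 0.0125), an inducible Hsp70, and Hspb8, a small heat shock protein, fell by 0.57 (adjusted p = 0.0107) on the log2 scale. The marker shifts of 76 h given above moved with all of these lists as well.

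At 4 h 0 of the 168 genes in the 8 lists passed in limma (28 at an unadjusted p under 0.05), where 0.186% of all genes did. At 16 h 1 did (0.595%, against 0.308% of all genes), Ddit4, an inhibitor of mTOR signalling, at -0.84 (adjusted p = 0.0167). At 28 h 8 passed (4.76%, against 2.53%), and those that rose were Creb3l1 (1.37, adjusted p = 0.00573), Kdelr3 (1.05, adjusted p = 7.22e-04), Fkbp14 (0.72, adjusted p = 0.00623), Pdia5 (0.68, adjusted p = 0.033), Rcn1 (0.39, adjusted p = 0.0396) and Calu (0.32, adjusted p = 0.00532). Ddit4 and Sec11c, a signal peptidase subunit, fell (-0.79, adjusted p = 0.00538, and -0.44, adjusted p = 0.0163). With other-time oil as control 0 of the 168 passed at 28 h in limma (13 at an unadjusted p under 0.05), so none of these 8 changes was called there. On that comparison Creb3l1 differed by 0.43 (adjusted p = 0.423), Kdelr3 by 0.22 (adjusted p = 0.502), Fkbp14 by 0.061 (adjusted p = 0.852), Pdia5 by -0.0088 (adjusted p = 0.987), Rcn1 by 0.052 (adjusted p = 0.808), Calu by 0.080 (adjusted p = 0.512), Ddit4 by -0.50 (adjusted p = 0.0713) and Sec11c by -0.11 (adjusted p = 0.571). Stromal matrix genes rose in 7 of 12 cases at 28 h against oil of 28 h, with sums of 55926 to 61036 on the oil arrays and 67802 to 76908 on the progesterone arrays, and their part in these changes was not tested.

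**Figure D4:**
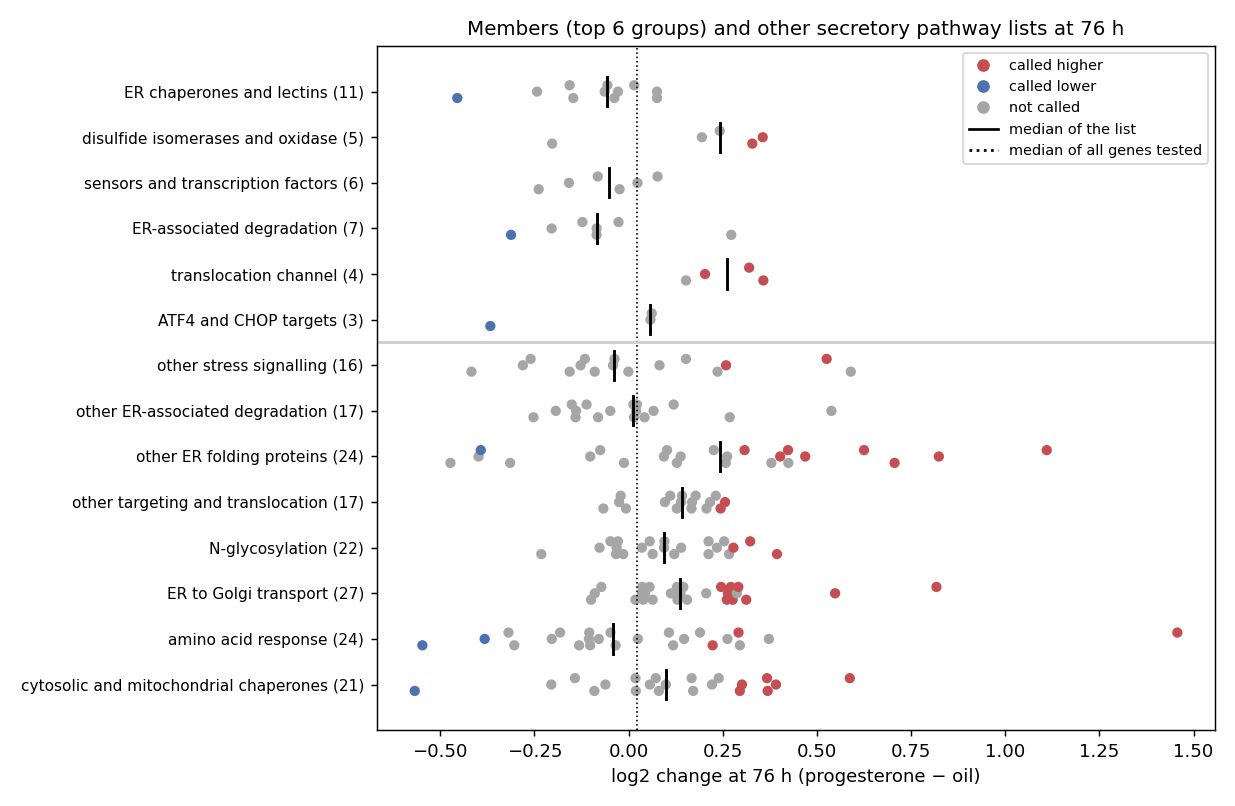
Difference between progesterone and oil at 76 h (log2, horizontal axis) for every gene of the 6 role groups of the 36 genes, above the grey line, and of 8 further lists below it, with the number of genes in brackets, a black bar at each list's median and a dotted line at the median of all genes. Red and blue points passed the test, and the sensors and the other degradation genes have none.

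Read together by promoter, the genes with the ER stress element did not share a direction at 76 h. The 8 holders differed by -0.028 (Hspa5), 0.076 (Hsp90b1), -0.16 (Dnajc3), 0.015 (Calr), 0.075 (Canx), -0.038 (Creld2), 0.33 (Pdia6) and -0.12 (Syvn1), and only Pdia6 passed. Among the 3 holders of the C/EBP-ATF element Asns fell and Herpud1 and Chac1 did not pass. Of the other 6 genes that changed at 76 h, Dnajb9, P4hb, Ssr1 and Ssr3 had a promoter in the table with no match to any of the 4 sequences, and Derl1 and Sec61a1 were not matched to a promoter.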

How the data were processed

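The authors deposited linear probe set intensities of 24 Affymetrix Mouse Genome 430 2.0 arrays, and the software that summarized and scaled them is not given in the sources used here. Per the labels, RNA was labelled with biotin in 1 cycle. Array medians lay between 62.8 and 70.2, and the number of arrays limits the precision. Of 45101 probe sets, 34945 named 1 gene, 932 several and 9160 none, and 64 were controls. Only those naming 1 gene were used.

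Intensities below the 10th percentile (7.38) were raised to it and log2 was taken. Probe sets above their array's median on at least 3 arrays were kept, and the one with the highest mean log2 stood for its gene, giving 12352 genes. limma 3.58.1 (R 4.3.3) fitted a mean per group over all 24 arrays, with eBayes, an intensity trend and Benjamini-Hochberg adjustment over all genes, at a threshold of 0.05. The method was tested on simulated data. Moderated F-tests compared the 4 oil groups, and the progesterone effect between times. Means ± SD are over 3 arrays.

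The 36 genes, their 6 role groups, the 8 pathway lists and the 10 marker lists were chosen with earlier results of these data known. Genes that passed a test are given on every array, the other members by range and count, and of each pathway list up to 3 genes per time with the largest change among those that passed. Creld1, Calu, Cct2, Cct4, Cct7 and Cct8 fall outside this rule and were named after their values were seen. Leaving out each array, another floor, filter, scaling, summary, control set and error model were tried, and leaving out the 28 h arrays was added after seeing the data. Promoters and symbols came from RefSeq GRCm38.p6. Protein sequences were not used here. The marker lists of milk proteins, macrophages and skeletal muscle gave 1 higher and 2 lower of 6, 1 higher and 0 lower of 10, and 0 of 12 at 76 h (0 of 12 also at an unadjusted p under 0.05).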

Additional observations from a re-analysis of the deposited data

Results flagged for a closer look

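For 6 of the 36 members the effect of progesterone differed between the 4 times, as it did for 10% of all genes. The moderated F-test was on the 3 differences between times, adjusted over all 12352 genes. Leaving out 1 array moved the number from 1 (without replicate 1 of oil at 76 h) to 8 (without replicate 3 of progesterone at 4 h). The adjusted p was 0.0168 for Asns, 0.0172 for Dnajb9, 0.0204 for Derl1, 0.0243 for P4hb, 0.0259 for Ssr3 and 0.0485 for Edem1. For Dnajb9, Derl1 and Asns the estimated effect at 76 h was lower than at earlier times, and for P4hb and Ssr3 it was higher. In limma the effect at 76 h differed from that at 4 h for Dnajb9, Derl1 and P4hb (adjusted p = 0.00374, 0.00902 and 0.00673). That contrast did not pass for Asns or Ssr3 (adjusted p = 0.0666 and 0.277). Edem1 had a positive difference at 4 h and negative differences at the other 3 times, none of which passed on its own.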

How the results depend on the processing

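Dnajb9, P4hb, Derl1 and Ssr3 passed at 76 h in the same direction under all 15 alternative settings and without any single array. Pdia6 and Asns passed under the 15 settings and each was lost without some array, Sec61a1 was lost with the mean of its probe sets and with other-time oil, and Ssr1 with centring, the mean of its probe sets and no intensity trend. Array weights, which let arrays far from their group count less, gave 14, 29 and 7 members at 4, 16 and 28 h (22.4%, 59.4% and 13.1% of all genes). They gave 26 for the oil groups, 27 for the effect between times and 19 for the mean effect. For these last tests the share of all genes was not computed under changed settings, so such counts cannot be set against it. Oil of the other 3 times gave 4 members at 4 h and 3 at 16 h (6.51% and 4.53% of all genes) with a 16 h median of -0.0068. Oil of all 4 times gave 3, 1 and 13 members at 4, 16 and 76 h (3.69%, 2.4% and 30.6% of all genes) and a 16 h median of -0.022. Averaging the probe sets of each gene gave 1 member at 28 h (Edem1, beside 2.48% of all genes) and a 4 h median of -0.072. Quantile normalization gave a 16 h median of -0.013 and 6 members for the oil groups. The number for the effect between times was 3 after centring on array medians and 2 with no intensity trend. At a threshold of 0.1 the numbers were 9 (oil groups), 10 (between times) and 7 (mean effect). Among differences that passed under the changed setting, signs turned for Sec61a1 at 16 h with array weights (0.13) and for Xbp1 at 76 h with other-time oil (-0.26) or all oil (-0.19). Signs of differences that passed in neither comparison turned with other-time oil for 9, 6, 10 and 7 members at the 4 times. The causes were not tested. Leaving out the 28 h arrays left 0, 0 and 8 members at 4, 16 and 76 h.

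Leaving out each array in turn gave 0 to 3 members at 4 h, 0 to 3 at 16 h, 0 at 28 h, 5 to 9 at 76 h, 2 to 7 for the oil groups, 1 to 8 between times and 1 to 8 for the mean effect. The member median ran from -0.050 to 0.023 at 4 h, -0.10 to -0.029 at 16 h, -0.10 to -0.011 at 28 h and -0.054 to 0.017 at 76 h. Of the 136 pairs of member and time that did not pass, 89 of 5268 alternative values passed.

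Nothing in the labels says that replicate numbers pair oil with progesterone arrays. Correlations of same-numbered deviations ran from -0.018 to 0.346, with 11 of 12 above 0 and 6 above 0.1, and 7 of 12 progesterone arrays correlated best with the oil array of their own number. The numbers were therefore not taken as pairs, for which every correlation had to exceed 0.1. A fit with the replicate number as a block gave 0, 0, 0 and 8 members at the 4 times, 3 for the oil groups, 5 between times and 2 for the mean effect.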
